A study of Mus musculus with 23 samples.

Results

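Synaptosomes isolated from the adult mouse hippocampus were compared, mRNA by mRNA, with neurites that cultured hippocampal neurons had grown into the perfusion channel of a microfluidic chamber. The comparison used 3 synaptosome libraries and 8 unstimulated chamber libraries, 11 of the 23 libraries of the series, and 22005 of the 48709 gene identifiers that had been counted. These 22005 are the genes of the total RNA tables that do not recur in the tables of long non-coding RNAs, without the mRNAs encoded by the mitochondrial genome. Each synaptosome library came from a pool of hippocampi of male C57B/6J mice aged 3 months, with RNA extracted in Trizol and a TruSeq total RNA library. The chamber libraries came from neurons of CD1 mouse embryos of embryonic day 17, grown for 14 days in vitro, with RNA from a GenElute kit and a SMARTer Stranded Pico library, and material of a pair of chambers went into each. No group carried a genetic alteration or a drug treatment. Age, strain, culture, RNA kit and library kit all change together with the preparation, so their parts in any difference given here cannot be told apart. The 3 pools are called pool 1 to pool 3, and the chamber libraries by their names in the tables. Of these, C1, C2, C3, C9 and C11 are grouped here as number titles, and Ctrl3, Ctrl4 and sc3 as titles with letters. The titles that carry the number of C1 are 1-a and 1-b, and those of C11 are 11-a and 11-b. All of them are unstimulated chamber samples, and which of each pair the library is cannot be told from its name.

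Synaptosomes are nerve terminals that pinch off and reseal when brain tissue is homogenized, often with a piece of the postsynaptic membrane attached. Neurons carry selected mRNAs into dendrites and axons, where ribosomes translate them near synapses, and both preparations are used to look at this local pool. A synaptosome fraction of brain tissue can also hold membrane-enclosed pieces of glial cells, whereas neurites that cross microgrooves reach the channel without their cell bodies. Mature synapses are rich in the kinase CaMKII, in glutamate receptors and in ion pumps, and growing neurites in cytoskeletal and guidance proteins.

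Levels are given in CPM, the counts of an mRNA after those of all mRNAs of the library are scaled to a sum of 1000000. The pools held 1443032 to 1553612 mRNA counts, 9.15% to 9.81% of all their counts, and 14040 to 14084 mRNAs had at least 1 count in each. The chamber libraries held 591212 to 46675715 mRNA counts, 68.7% to 96.7% of all their counts, with 15752 to 20848 mRNAs detected. Library sc3 stood apart from the other 7 chamber libraries in its depth, which was the highest, and in the length of its mRNAs. Relative to the pools, its median log2 level was 1.48 higher in the fifth of the mRNAs with the shortest transcripts and 0.91 lower in the fifth with the longest. Over the other 7 the mean level was 0.12 and 0.56 higher in these groups of short and long transcripts. Odorant and vomeronasal receptors, which neither preparation should express, summed to 9.18 to 15.9 CPM in the pools, 53.9 CPM in sc3 and 1692 to 12917 CPM in the other chamber libraries. Gene models over satellite repeats took at most 0.000208% of the mRNA counts of a pool, 0.0189% in sc3 and 2.75% to 10.8% in the others. Lars2, a mitochondrial leucyl-tRNA synthetase, took 6.07% to 16.3% of the mRNA counts of the pools and 0.00998% to 0.153% of those of the chamber libraries. What part these levels have in the differences below was not tested, and for some results that rest on sc3 the value without it is also given.

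The order of mRNA levels was similar in the preparations, and much more uniform among pools than among neurite libraries. Across the 22005 mRNAs, Spearman's rho between the mean CPM of synaptosomes and of neurites was 0.83, and 0.80 without sc3. It was 0.97 for every pair of pools, whereas it ran from 0.46 to 0.88 between neurite libraries. Single pools against single neurite libraries gave 0.53 to 0.85. The highest of these values belonged to sc3, at 0.84 to 0.85, followed by C1 at 0.82, and the lowest to Ctrl3, at 0.53 to 0.54. Library sc3 was thus closer in rank to each pool than to any other neurite library, with which it gave at most 0.79. These correlations are across genes, which are not independent replicates, and libraries of 1 preparation share their kit. CPM are not divided by length, so ranks by CPM hold transcript length in both preparations, and per kilobase of transcript rho was 0.69.

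**Figure D1:**
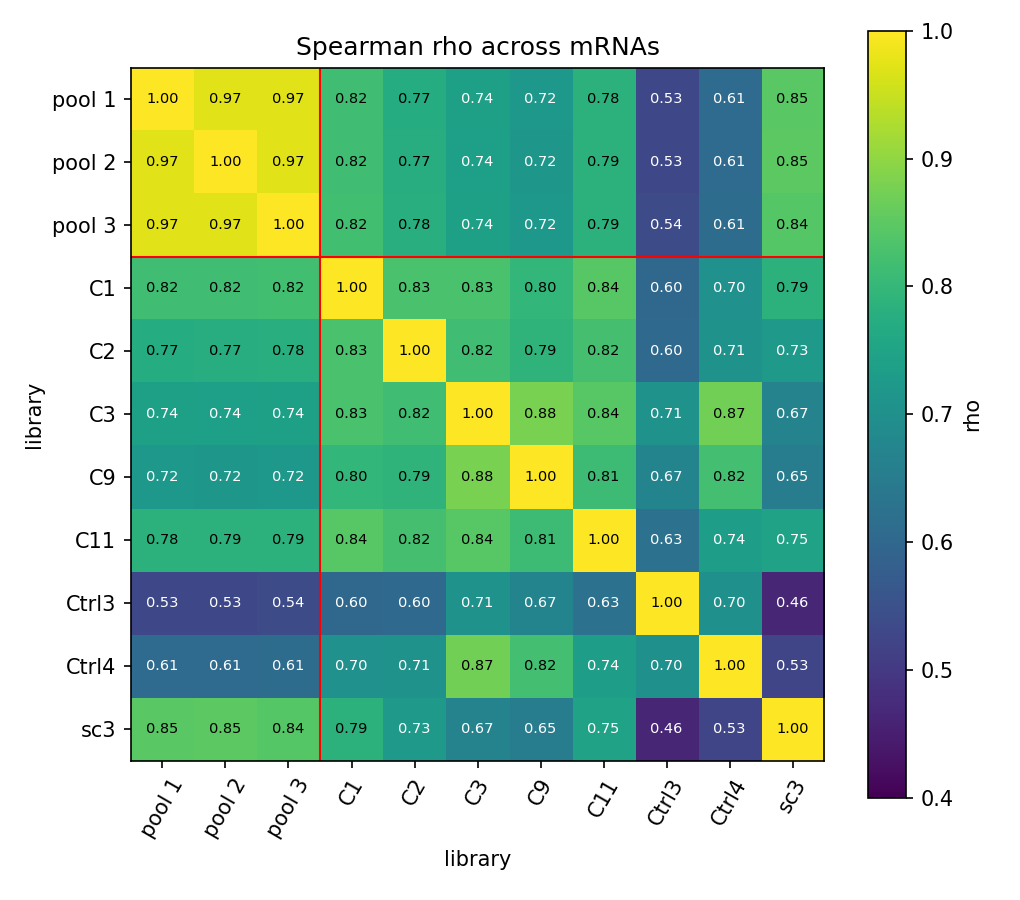
Spearman's rho between the mRNA levels (CPM) of each pair of the 11 libraries, across 22005 mRNAs, with 3 synaptosome pools and 8 neurite libraries on both axes and a line between the preparations. The pools form a block at 0.97, while Ctrl3 has values of 0.46 to 0.71 with all others.

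Of the 250 mRNAs with the highest mean CPM in each preparation, 130 were in both lists, 52% of each. The shared share was 50% of the first 50 mRNAs, 49% of the first 100, 55% of the first 500 and 58.8% of the first 1000. Between pools 214 to 223 of the first 250 were shared, and between neurite libraries 19 to 204, with a median of 126. The first 250 took 42.1% of the mRNA counts in synaptosomes and 18.8% in neurites. The 130 shared mRNAs held 19 of the 33 motors, microtubule proteins and membrane skeleton proteins listed, 12 of 52 presynaptic and 10 of 50 postsynaptic genes, 8 of 15 ion pumps and exchangers, and 9 of 34 astrocyte markers. None of the 20 microglia markers was in the shared list, and 2 were among the 120 found in the synaptosome list alone. Among the 120 found in the neurite list alone were 6 presynaptic genes, 4 satellite models, 4 secretory granule genes and 4 chaperones.

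The mRNAs at the head of both lists code for the tracks and motors of neurites and for the scaffold under their membrane. Map1b, a microtubule-associated protein of growing axons and dendrites, measured 2616, 3323 and 3219 CPM in pools 1 to 3 and 401 to 3144 CPM in the neurite libraries (median 1717). It ranked 15th in synaptosomes and 4th in neurites, the groups overlapped, and the difference of 0.78 on the log2 scale did not pass the test (edgeR adjusted p = 0.31). Sptbn1, a spectrin of the membrane skeleton, was at rank 10 in synaptosomes and rank 11 in neurites. Ank2, an ankyrin that ties membrane proteins to spectrin, was at ranks 8 and 10. Sparcl1, a secreted glycoprotein of astrocytes that is also made by neurons, was at ranks 6 and 5, and Kif5c, a kinesin heavy chain, was 16th in both. All 4 were higher in every pool than in any neurite library, as for Sparcl1 with 4593 to 5677 CPM in the pools and 213 to 3299 CPM in neurites. Their differences of 1.37 to 1.67 did not pass the test, with adjusted p-values of 0.0573 to 0.123 in edgeR, and with TMM factors, described below, Ank2 did (2.51, adjusted p = 0.0406). Kif5a, another kinesin heavy chain and at rank 3 in synaptosomes, measured 5543, 7309 and 9449 CPM in the pools and 186 to 1923 CPM in neurites (median 864). All pools lay above all neurite libraries, by 2.87 on the log2 scale (SE 0.69, edgeR adjusted p = 0.0141).

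Across all 18107 mRNAs with enough counts for a test, 468 were higher in synaptosomes (2.58% of those tested) and 4581 were higher in neurites (25.3%), at an edgeR adjusted p of at most 0.05 and a difference of at least 1 on the log2 scale. The median difference of all tested mRNAs, synaptosomes minus neurites, was −1.79. With TMM factors, which set the scale by the bulk of the mRNAs and not by the sum of counts, the median moved by 0.91 to −0.87. The calls then numbered 978 higher in synaptosomes (5.4%) and 1280 higher in neurites (7.07%), so that the share of calls higher in synaptosomes went from 9.27% to 43.3%. Of the 468, 460 were called with TMM factors too, as were 1280 of the 4581, and no call changed direction. A direction of a list below is therefore read against the median of all mRNAs, and its calls against the shares of all mRNAs called, on both scales. That median is not matched for level. For mRNAs with at least 20 CPM in either preparation it was −1.01 in the 6464 with no sequence window shared with another gene. It was −1.06 in the 4214 that share up to 5% of their windows, described below. Of 37 lists, satellite models included, 31 had a median above −1.79 and 13 above 0. With TMM factors 25 were above 0. A median above −1.79 is thus not particular to any list. Without sc3 the counts were 773 (4.28%) and 8381 (46.4%), and without C3 they were 355 and 2927. Without pool 1, pool 2 or pool 3 they fell to 98, 109 and 84 higher in synaptosomes and to 222, 220 and 169 higher in neurites. With the 5 neurite libraries grouped as number titles alone they were 903 and 7530, and with the 3 grouped as titles with letters alone 266 and 1444. Of the 88 called mRNAs that are named in the text, 23 kept their call whichever library was left out, namely Slc1a2, Ttr, Gria1, Grm5, Dkk3, Itpr1, Rapgef4, Akap11, Gnas, Gm20721, Nptx1, Glul, Mobp, Enpp2, Csf1r, C1qb and P2ry12 toward synaptosomes and Actg1, Gapdh, Rpl19, Nes, Stmn1 and Cabp1 toward neurites. The other 65 lost it without at least 1 of the 3 pools (59, 60 and 65 without pools 1, 2 and 3), which leaves a pair of pools, and 14 of them also without a neurite library, chiefly C3 (12) or C9 (11). None lost it without sc3. All 3 pools lay above all 8 neurite libraries in 4.16% of the tested mRNAs and below them in 15.9%.

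**Figure D2:**
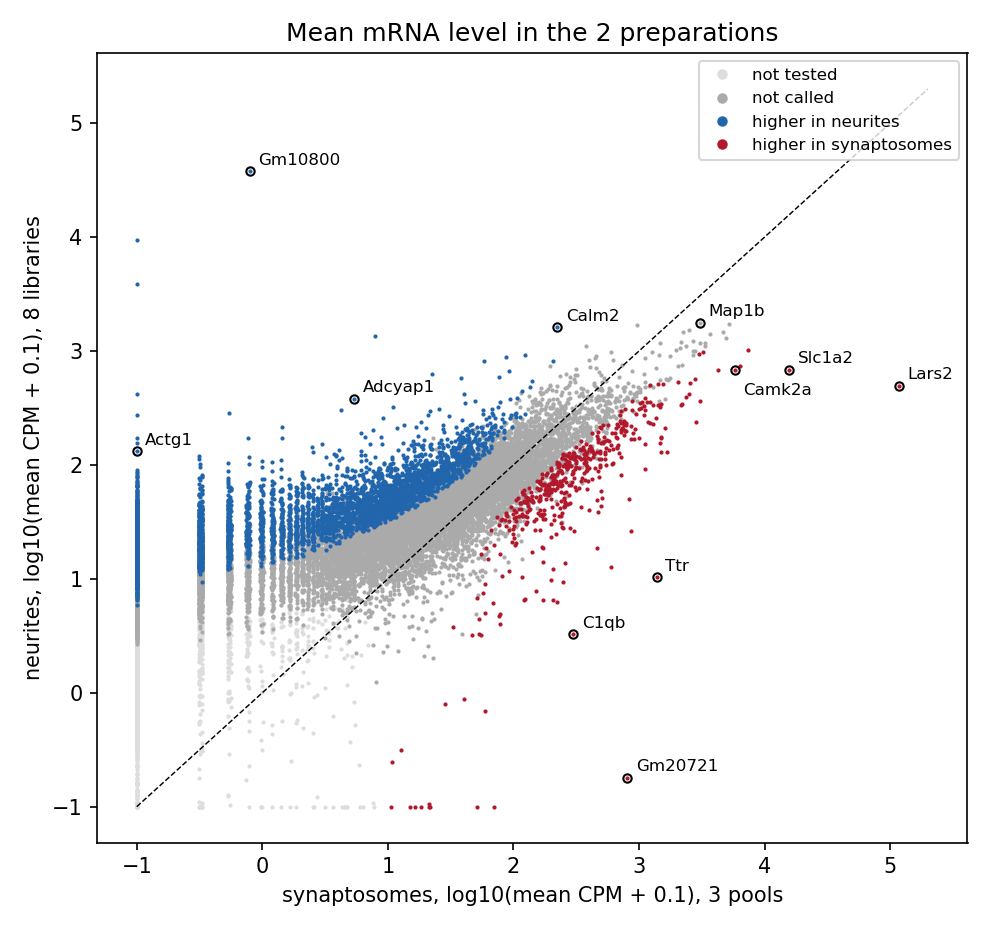
Mean level of each mRNA in synaptosomes (3 pools, x axis) and neurites (8 libraries, y axis), both as log10 of CPM plus 0.1, with mRNAs of a called difference in colour and the line of equal levels dashed. Lars2, Slc1a2, Ttr and Gm20721 lie far to the side of synaptosomes, and Gm10800, Adcyap1 and Actg1 to the side of neurites.

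Slc1a2, the main glutamate transporter of astrocytes, had the largest level after Lars2 in synaptosomes. It measured 17983, 12483 and 16471 CPM in pools 1 to 3, and between 208 and 1287 CPM in the neurite libraries with a median of 712. The lowest pool was far above the highest neurite library, and the difference was 4.52 on the log2 scale (SE 0.77, edgeR adjusted p = 0.00335). It was 4.41 without sc3. Camk2a, the alpha subunit of CaMKII, whose mRNA is a classical dendritic transcript, measured 5407, 4497 and 7503 CPM in the pools and 135 to 1422 CPM in neurites (median 592). Here too the groups did not overlap, with a difference of 3.08 (SE 0.67, adjusted p = 0.00997). Ttr, transthyretin, which the choroid plexus secretes in large amounts, measured 1886, 1585 and 682 CPM in the pools. The neurite libraries had 0 to 27.1 CPM with a median of 7.69, the lowest in C11 and the highest in Ctrl4. The difference was 7.21 (SE 1.03, adjusted p = 0.00145), and pool 3 had less than pools 1 and 2. Of the 14 markers of choroid plexus and ependyma, Ttr was the only one called, and with TMM factors Kl was called too. Kl, klotho, which the choroid plexus makes in large amounts, had 142, 129 and 98.5 CPM in the pools and 0.9 to 87.8 CPM in neurites, so that every pool lay above every neurite library (1.35, adjusted p = 0.137; with TMM factors 2.47, adjusted p = 0.0252). Prlr, the prolactin receptor and another choroid plexus marker, had 77.6, 62.3 and 30.3 CPM in the pools and 0.321 to 103 CPM in the neurite libraries. Otx2, a transcription factor of choroid plexus cells, had 8.32, 3.28 and 3.22 CPM in the pools and 0 to 62.6 CPM in neurites. Prlr and Otx2 overlapped between the preparations. The 14 together summed to 862 to 2237 CPM in the pools and 12.5 to 746 CPM in the neurite libraries. Lars2 itself measured 130439, 162549 and 60684 CPM in the pools and 99.8 to 1526 CPM in the neurite libraries, a difference of 7.89 (SE 1.68, adjusted p = 0.00922). In bulk RNA, fewer cells or fragments of a type and less RNA in each cannot be told apart.

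**Figure D3:**
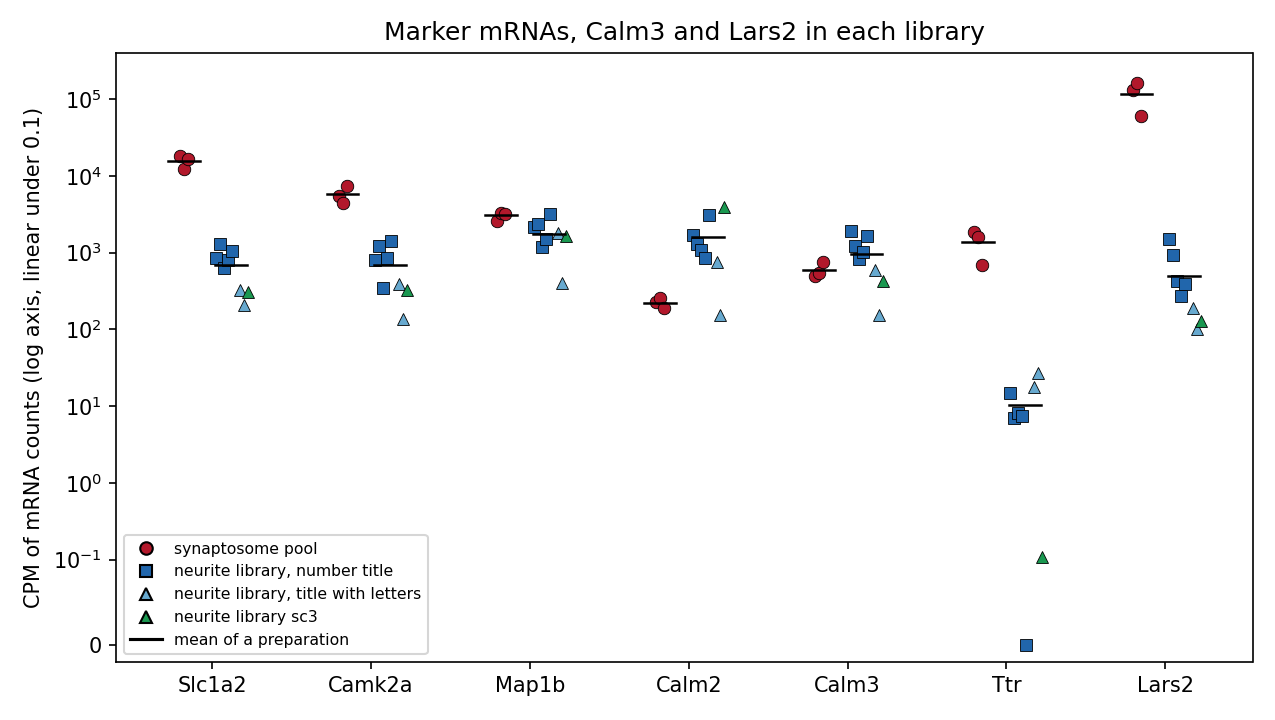
Level of 5 marker mRNAs, of Calm3 and of Lars2 in every library, in CPM on a log axis that is linear under 0.1, with 3 synaptosome pools (circles) and 8 neurite libraries (squares for number titles, triangles for titles with letters, sc3 in green) and bars for the means. Slc1a2, Camk2a, Ttr and Lars2 are higher in every pool than in any neurite library, Calm2 runs from 188 to 254 CPM in the pools, and Map1b overlaps.

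Calm2 was lower in synaptosomes, whereas Calm3, which encodes the same protein, did not pass the test. Calmodulin, the calcium sensor that activates CaMKII, has 149 residues, identical for Calm2 and Calm3, while their coding sequences of 450 bases differ. The first 120 bases of each coding sequence are shown because a count for either gene rests on these differences, with the positions that are not alike in capitals (18 here and 78 in the whole coding sequence; mm10, GENCODE vM21, with the gene at chr17:87433412-87446935 on the minus strand for Calm2 and chr7:16915379-16924114 on the minus strand for Calm3).
Calm2: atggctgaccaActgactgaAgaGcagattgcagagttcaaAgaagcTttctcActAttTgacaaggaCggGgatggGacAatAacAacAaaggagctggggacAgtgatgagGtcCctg
Calm3: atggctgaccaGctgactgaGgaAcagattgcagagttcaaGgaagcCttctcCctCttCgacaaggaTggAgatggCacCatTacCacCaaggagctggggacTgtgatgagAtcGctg
They are identical at 82.7% of the coding bases and share no window of 50 bases there. Calm2 measured 229, 254 and 188 CPM in the pools and 152 to 3978 CPM in neurites (median 1195). Calm3 measured 495, 538 and 753 CPM in the pools and 156 to 1890 CPM in neurites (median 917). The 3 pools lay close together for each gene, whereas the neurite libraries spread widely, with Ctrl4 lowest for both. Calm2 was lower in synaptosomes by 2.85 on the log2 scale (SE 0.88, edgeR adjusted p = 0.0319), although Ctrl4 lay below the pools, and with TMM factors the difference of −2.2 did not pass the test (adjusted p = 0.134). Without sc3, the highest neurite library for Calm2, the difference was −2.51 (edgeR adjusted p = 0.0101). Calm3, at −0.71, did not pass the test on either scale, and it changed sign to 0.13 with TMM factors. Whether the differences of the 2 genes differ from each other was not tested. Transcripts of other genes share 9.72% of the 50-base windows of Calm2 and 2.52% of those of Calm3.

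Many postsynaptic genes were higher in synaptosomes. Of 50 tested, 12 were higher in synaptosomes and 1 was higher in neurites, against 2.58% and 25.3% of all mRNAs, and their median difference was 0.72, against −1.79. With TMM factors 21 were higher in synaptosomes, against 5.4% of all mRNAs, and the median was 1.59, against −0.87. Gria1, an AMPA receptor subunit, measured 1406, 1387 and 1697 CPM in the pools and 98.1 to 314 CPM in neurites (median 166). The highest neurite library, sc3, was well below the lowest pool, and the difference was 3.10 (SE 0.41, adjusted p = 0.00109). Psd3, a guanine nucleotide exchange factor of the postsynaptic density, measured 1427, 1440 and 1545 CPM in the pools and 45 to 476 CPM in neurites (median 355), a difference of 2.18 without overlap (adjusted p = 0.0138). Ddn, dendrin, another dendritically localized mRNA, measured 1133, 1015 and 1945 CPM in the pools and 69.3 to 546 CPM in neurites, a difference of 2.42 (adjusted p = 0.0159). Also called were Grm5, a metabotropic glutamate receptor, at 2.25, Homer2, a scaffold that binds it, at 2.2, and the NMDA receptor subunits Grin1 at 1.74 and Grin2a at 1.72. The NMDA receptor subunit Grin2b, with 2677, 2276 and 3434 CPM in the pools and 192 to 2017 CPM in neurites, missed the threshold (1.47, adjusted p = 0.0882) and passed it with TMM factors (2.34, adjusted p = 0.0499). Camk2d, the delta subunit of CaMKII, went the other way. It measured 49.9, 38 and 55.4 CPM in the pools and 92.3 to 307 CPM in neurites (median 186), and every neurite library lay above every pool. The difference was −1.99 (SE 0.45, adjusted p = 0.0111), but −1.11 with TMM factors, which did not pass (adjusted p = 0.133).

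Presynaptic genes were called in both directions. Of 52 tested, 8 were higher in synaptosomes and 4 in neurites, against 2.58% and 25.3% of all mRNAs, with a median of 0.21 against −1.79. The median became 1.10 with TMM factors, when 10 were higher in synaptosomes and none in neurites, against 5.4% and 7.07% of all mRNAs. Pclo, piccolo, a giant scaffold of the active zone, measured 2385, 2288 and 3713 CPM in the pools and 119 to 998 CPM in neurites (median 482), a difference of 2.31 without overlap (SE 0.59, adjusted p = 0.0178). Syt1, synaptotagmin, the calcium sensor of vesicle release, measured 1951, 1817 and 2380 CPM in the pools and 156 to 945 CPM in neurites, a difference of 1.93 (adjusted p = 0.0219). Sv2b, a vesicle glycoprotein, was higher by 2.42 and Cplx2, complexin, which clamps vesicle fusion, by 1.98. Bsn, bassoon, the partner of piccolo, had 1482, 1181 and 2448 CPM in the pools and 76.6 to 1076 CPM in neurites and did not pass (1.61, adjusted p = 0.0711). Snap25, a SNARE protein of the nerve terminal, had 611, 603 and 646 CPM in the pools, and its neurite libraries ran from 99.8 to 3135 CPM, with sc3 the highest. Its difference of −0.44 did not pass, and it was 0.10 with TMM factors and 0.27 without sc3. Among those higher in neurites were Unc13b, a vesicle priming factor, at −2.23, Stx1a, a plasma membrane SNARE, at −1.96, and Sncb, beta-synuclein, at −1.50. These had at most 64.4 CPM in every pool, and none of them passed with TMM factors, where their differences were −0.75 to −1.30.

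Inhibitory synapses followed the postsynaptic pattern. Of 23 genes of GABAergic transmission, 8 were higher in synaptosomes and none in neurites, against 2.58% and 25.3% of all mRNAs, with a median of 1.01. Gabbr1, a subunit of the metabotropic GABA receptor, measured 1031, 874 and 1193 CPM in the pools and 139 to 534 CPM in neurites (median 279), a difference of 1.72 without overlap (adjusted p = 0.0195). Gabrb1, a subunit of the ionotropic receptor, measured 590, 544 and 590 CPM in the pools and 68.2 to 243 CPM in neurites, a difference of 1.84 (adjusted p = 0.00912). Slc32a1, the transporter that fills vesicles with GABA, measured 76.9, 71.5 and 86.3 CPM in the pools and 0 to 9.54 CPM in neurites. That difference was 4.03 (SE 0.87, adjusted p = 0.00983). Of the 17 interneuron markers tested, 4 were higher in synaptosomes and none in neurites, and their median went from −0.35 to 0.48 with TMM factors. Sst, somatostatin, measured 169, 167 and 180 CPM in the pools, whereas the neurite libraries had 0 to 78.3 CPM with a median of 5.06, and sc3 was the highest. Its difference was 3.53 (adjusted p = 0.0262), and 5.22 without sc3. Among 24 markers of pyramidal and granule cells, 5 were higher in synaptosomes and 1 in neurites, with a median of 0.86. Dkk3, a secreted Wnt pathway protein of hippocampal neurons, measured 504, 458 and 530 CPM in the pools and 14.7 to 90 CPM in neurites, a difference of 3.50 (SE 0.41, adjusted p = 0.000518).

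Among pumps, channels and calcium signalling genes, those called were higher in synaptosomes with few exceptions. Of 15 ion pumps and exchangers, 7 were higher in synaptosomes and none in neurites, against 2.58% and 25.3% of all mRNAs. All 15 differences were above 0, with a median of 1.60. Atp1b1, the beta subunit of the sodium pump, measured 2268, 2207 and 2629 CPM in the pools and 167 to 2573 CPM in neurites (median 794). The neurite library with the highest level reached the level of the pools, and the difference of 1.09 did not pass (adjusted p = 0.218). Of 30 voltage-gated sodium and potassium channels, 10 were higher in synaptosomes and none in neurites, with a median of 0.92. Scn2a, an axonal sodium channel, was higher by 1.54 and Dpp6, an auxiliary subunit of A-type potassium channels, by 1.67. Of 36 genes of calcium stores, kinases and cyclases, 14 were higher in synaptosomes and 2 in neurites, with a median of 0.96. Itpr1, the calcium release channel of the endoplasmic reticulum, measured 1180, 1079 and 1434 CPM in the pools and 69.3 to 332 CPM in neurites (median 226). The pools lay above every neurite library, by 2.39 (SE 0.43, adjusted p = 0.00447). Adcy1, an adenylyl cyclase activated by calmodulin, was higher by 2.68, Rapgef4, an exchange factor that binds cyclic AMP, by 3.10, and Akap11, an anchor of protein kinase A, by 2.5. Among 33 motors, microtubule and membrane skeleton genes 6 were higher in synaptosomes, among them Ank3, ankyrin-G, by 2.65, and 1 in neurites, with a median of 0.95. That one was Kif3a, a kinesin-2 motor, with 61, 59 and 58.6 CPM in the pools and 76.1 to 323 CPM in neurites, at −1.68 (adjusted p = 0.0211) and −0.86 with TMM factors (adjusted p = 0.263).

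**Figure D4:**
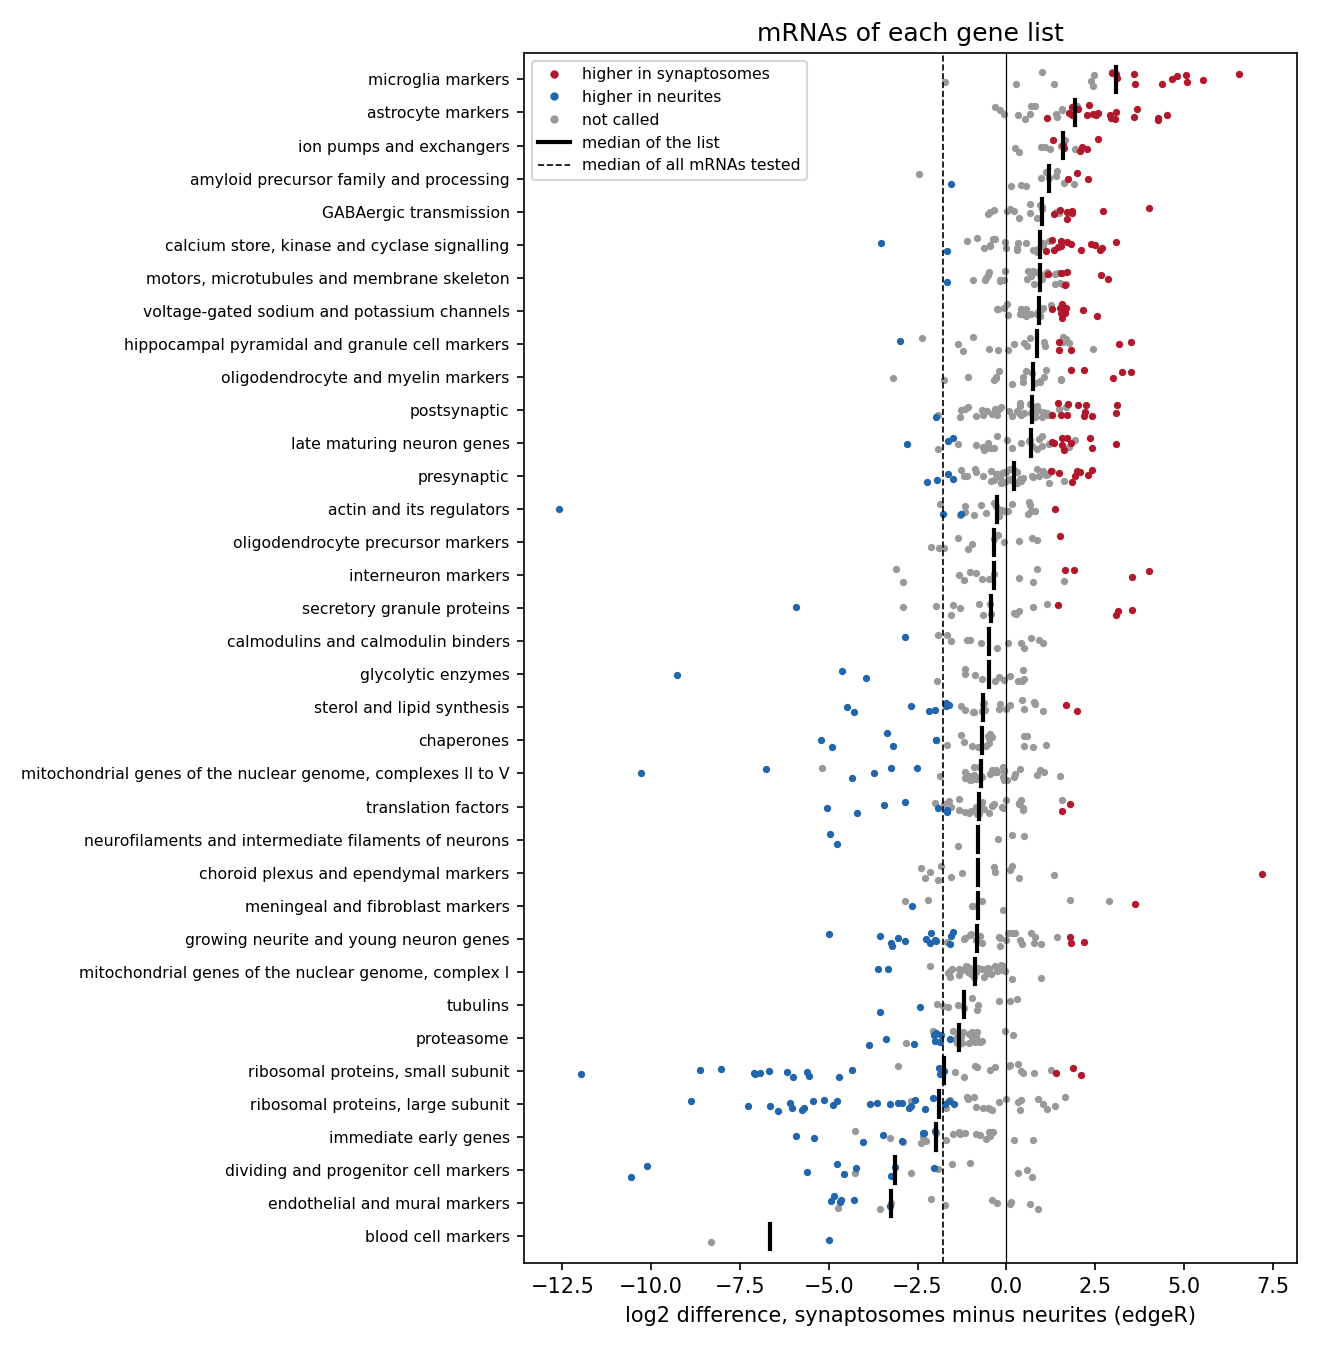
Log2 difference (synaptosomes minus neurites, edgeR) of each tested mRNA in 36 gene lists, 1 row a list, ordered by the list's median (bar), with called mRNAs in colour and the median of all tested mRNAs, −1.79, as a dashed line. Microglia and astrocyte markers lead, at medians of 3.10 and 1.92, and ribosomal proteins, dividing cell markers and endothelial markers stand at or below the dashed line.

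Markers of astrocytes and microglia were higher in synaptosomes and in no case higher in neurites. Of 34 astrocyte markers 19 were higher in synaptosomes and none in neurites, against 2.58% and 25.3% of all mRNAs, with a median of 1.92 that was 2.71 without sc3. Their summed level was 46040 to 54851 CPM in the pools, 33510 CPM in sc3 and 2434 to 10157 CPM in the other neurite libraries. Glul, glutamine synthetase, measured 2750, 2534 and 3284 CPM in the pools and 91.3 to 515 CPM in neurites, a difference of 3.59 (SE 0.49, adjusted p = 0.00119). Clu, clusterin, measured 1599, 1701 and 1746 CPM in the pools and 11.5 to 712 CPM in neurites, where sc3 held the 712 CPM and the median was 59.8. Gja1, the gap junction protein connexin 43, was higher by 2.43. Gfap, the intermediate filament of astrocytes, did not follow: its levels were 814, 641 and 733 CPM in the pools and 120 to 2652 CPM in neurites (median 690), with overlapping groups and a difference of −0.06, which became 0.51 with TMM factors and 0.57 without sc3. Apoe, a lipid carrier, had 2480, 2491 and 3032 CPM in the pools, 4721 CPM in sc3 and a median of 403 CPM over the neurite libraries, and did not pass (1.41, adjusted p = 0.182). Without sc3 the difference was 2.5 and passed (adjusted p = 0.00101). Microglia markers had the highest median of all lists, 3.10, with 12 of 20 higher in synaptosomes and none in neurites. With TMM factors 18 of 20 were higher in synaptosomes, against 5.4% of all mRNAs. The 20 markers summed to 3391 to 4672 CPM in the pools and 103 to 660 CPM in the neurite libraries. Csf1r, the receptor microglia need to survive, measured 757, 1005 and 802 CPM in the pools and 0.407 to 64.3 CPM in neurites, a difference of 5.08 (SE 0.94, adjusted p = 0.00544). C1qb, a chain of complement C1q, measured 244, 342 and 315 CPM in the pools, and the neurite libraries had 0 to 11.8 CPM with a median of 0. P2ry12, a purine receptor that marks resting microglia, measured 188, 237 and 196 CPM in the pools and 0 to 18.6 CPM in neurites.

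Some myelin markers were higher in synaptosomes. Of 24 oligodendrocyte genes 5 were higher in synaptosomes and none in neurites, against 2.58% and 25.3% of all mRNAs, with a median of 0.76. Mobp, a myelin protein whose mRNA travels into oligodendrocyte processes, measured 266, 475 and 302 CPM in the pools and 17.9 to 80.3 CPM in neurites, a difference of 3.02 (SE 0.38, adjusted p = 0.000765). Enpp2, autotaxin, a secreted enzyme that choroid plexus cells make as well, measured 1840, 1693 and 982 CPM in the pools and 53.4 to 565 CPM in neurites (median 67.3), a difference of 3.52 (SE 0.68, adjusted p = 0.00627), and 4.46 without sc3, its highest neurite library. Of 13 markers of oligodendrocyte precursors 1 was called, Ptprz1, a receptor phosphatase that astrocytes also make, higher in synaptosomes by 1.51. Of 17 vessel markers 6 were higher in neurites, against 25.3% of all mRNAs, and none in synaptosomes, with a median of −3.26 against −1.79. The libraries of the preparations did not overlap for 1 of them. Bsg, basigin, the most abundant member, was at 0.12, with 342 to 370 CPM in the pools and 54.1 to 675 CPM in neurites. With TMM factors 1 remained, Vwf, von Willebrand factor, with 6.24, 3.93 and 1.29 CPM in the pools and 6.31 to 215 CPM in neurites, at −4.67 (adjusted p = 0.0156) and −3.49 with TMM factors (adjusted p = 0.0331). Of the 493 odorant and vomeronasal receptors tested, 26 were called higher in neurites, against 25.3% of all mRNAs. Of the 4577 mRNAs higher in neurites that have a length, 3101 had a mean level over 5 times that of these receptors at the same length. With TMM factors this held for 860 of 1280.

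Genes of young, growing neurons were called in both directions. Of 40 such genes 14 were higher in neurites and 3 in synaptosomes, against 25.3% and 2.58% of all mRNAs. Their median of −0.82 lay above the −1.79 of all mRNAs, and it was −0.01 with TMM factors. On that scale 5 were called each way, against 5.4% of all mRNAs toward synaptosomes and 7.07% toward neurites. Stmn1, stathmin, which destabilizes microtubules, measured 6.24, 4.59 and 7.08 CPM in the pools and 45.7 to 557 CPM in neurites (median 125). Every neurite library lay above every pool, with a log2 difference of −5.00 (SE 0.83, adjusted p = 0.00312). Dcx, doublecortin, a marker of migrating and newly born neurons, measured 15.2, 9.83 and 9.01 CPM in the pools and 13.9 to 126 CPM in neurites (median 102), a difference of −3.04 (adjusted p = 0.00778). Library sc3, at 13.9 CPM, lay below pool 1, and the other 7 lay above all pools. Cd24a, a cell surface glycoprotein, was at −3.56, and Dpysl5, a collapsin response mediator of growth cones, at −2.86, both also with TMM factors (−2.76 and −1.84). Gap43, the growth cone protein whose mRNA is carried into axons, had 53.4, 54.4 and 59.9 CPM in the pools and 15.4 to 386 CPM in neurites, and did not pass (−1.66, adjusted p = 0.0883). The 3 of this list that were higher in synaptosomes were L1cam, an adhesion molecule of axons, by 1.82, Nnat, neuronatin, by 1.79, and Islr2, a membrane protein with leucine-rich repeats, by 2.19. Of 36 genes known to rise late in neuronal maturation, 10 were higher in synaptosomes and 3 in neurites, with a median of 0.69. Among the 3 were Sncb, given above, and Cabp1, a calmodulin-like regulator of calcium channels. Cabp1 measured 14.6, 13.8 and 23.2 CPM in the pools and 47.4 to 165 CPM in neurites, without overlap, at −2.80 (SE 0.46, adjusted p = 0.00304).

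Markers of dividing and progenitor cells were higher in neurites in 9 of 17 cases, against 25.3% of all mRNAs, and in synaptosomes in none, with a median of −3.14. With TMM factors 5 of 17 were higher in neurites, against 7.07% of all mRNAs. Nes, nestin, an intermediate filament of neural progenitors, measured 7.62, 4.59 and 7.08 CPM in the pools and 44.9 to 362 CPM in neurites (median 158), a difference of −4.77 (SE 0.76, adjusted p = 0.00252). Cdk1, a kinase of mitosis, had no count in any pool and 1.41 to 136 CPM in neurites. Fabp7, a fatty acid carrier of radial glia, had 39.5, 26.2 and 25.7 CPM in the pools, and its neurite libraries ran from 20.3 to 1354 CPM, with sc3 the highest. Its difference was −3.14 (adjusted p = 0.0483), and −1.89 without sc3. Their summed level was 300.3 to 329 CPM in the pools and 842 to 2015 CPM in the neurite libraries.

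Some single genes of peptides and of neuronal activity lay far toward neurites, but others did not. Of 19 secretory granule genes 4 were higher in synaptosomes, Cpe and Sst among them, against 2.58% of all mRNAs. In neurites 1 was higher, Cartpt, against 25.3%. The lists of immediate early and secretory granule genes had medians near or above that of all mRNAs. Adcyap1, which encodes the neuropeptide PACAP, measured 4.85, 5.24 and 5.79 CPM in the pools and 7.28 to 1243 CPM in neurites (median 209). No neurite library was below a pool, and the difference was −6.17 (SE 1.59, adjusted p = 0.0181). Library sc3 held the 7.28 CPM, close to the pools. Cartpt, another peptide precursor, had 2.77, 0.656 and 0 CPM in the pools and 7.26 to 238 CPM in neurites, a difference of −5.91 (adjusted p = 0.01). Rgs4, which shortens G protein signals, measured 54.7, 59.7 and 61.1 CPM in the pools and 105 to 1873 CPM in neurites (median 601), a difference of −3.80 (adjusted p = 0.0121). Mef2c, a transcription factor of neuronal activity, measured 116, 119 and 137 CPM in the pools and 195 to 1808 CPM in neurites (median 858). It was at −2.91 (adjusted p = 0.0153), and at −2.08 with TMM factors (adjusted p = 0.0818). Adcyap1, Rgs4 and Mef2c were picked after their values were seen. Of 29 immediate early genes tested, 8 were higher in neurites and none in synaptosomes, close to the 25.3% of all mRNAs, and their median of −1.98 was close to the −1.79 of all. Without sc3 17 were higher in neurites, against 46.4% of all mRNAs. With TMM factors 1 was, Klf4, a zinc finger factor, with at most 1.39 CPM in a pool and 2.1 to 91.6 CPM in neurites. Fos, the founding member of this class, measured 6.24, 5.9 and 5.15 CPM in the pools and 15.2 to 73.1 CPM in neurites, a difference of −2.93 (adjusted p = 0.01), and −2.07 with TMM factors (adjusted p = 0.0516). Arc, an immediate early gene whose mRNA moves into dendrites, had 188, 118 and 192 CPM in the pools and 13.5 to 185 CPM in neurites, and did not pass (0.76, adjusted p = 0.247). Cpe, carboxypeptidase E, which processes peptide hormones, measured 6870, 6013 and 6070 CPM in the pools and 103 to 3243 CPM in neurites, where sc3 held the highest value and the median was 445. It was higher in synaptosomes by 3.08 (SE 0.84, adjusted p = 0.0222), and by 4.03 without sc3.

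Ribosomal protein mRNAs were higher in neurites in 25 of 46 cases for the large subunit and 16 of 33 for the small subunit, against 25.3% of all mRNAs. In synaptosomes none and 3 were higher, against 2.58%. The medians of the subunits, −1.88 and −1.76, were close to the −1.79 of all mRNAs. Most ribosomal protein genes have processed pseudogenes elsewhere in the genome, and the members differed by how much sequence they share with other genes. For each gene the share of the 50-base windows of its transcripts that also occur in transcripts of another gene was counted. In the 5 ribosomal protein mRNAs with under 5% of such windows, among them Rpl8 and Rps3, 2 were higher in synaptosomes, none in neurites, and the median difference was 1.04. In the 69 with 5% to 50%, 1 was higher in synaptosomes and 37 in neurites, with a median of −1.87. In the 5 with over 50%, 4 were higher in neurites and the median was −3.64. With TMM factors these medians were 1.85, −1.08 and −2.78. Rps3, a protein of the small subunit, measured 228, 305 and 256 CPM in the pools and 38.9 to 173 CPM in neurites, a difference of 1.40 (adjusted p = 0.0222). Rpl19, of the large subunit, with 57.4% of its windows shared, had 0, 0 and 0.644 CPM in the pools and 27.6 to 185 CPM in neurites. Over all mRNAs with at least 20 CPM in either preparation, the share called higher in neurites was 26.9% of the 6464 with no shared window, 30.1% of the 4214 with up to 5%, 39.8% of 834 with up to 25%, 57.2% of 208 with up to 50% and 50% of 64 above that. With TMM factors it was 8.11%, 8.88%, 14.1%, 30.8% and 28.1%. How the counting program treated reads that match several genes, and the read lengths of the libraries, are not given in the sources used here, and their part in these differences was not tested.

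**Figure D5:**
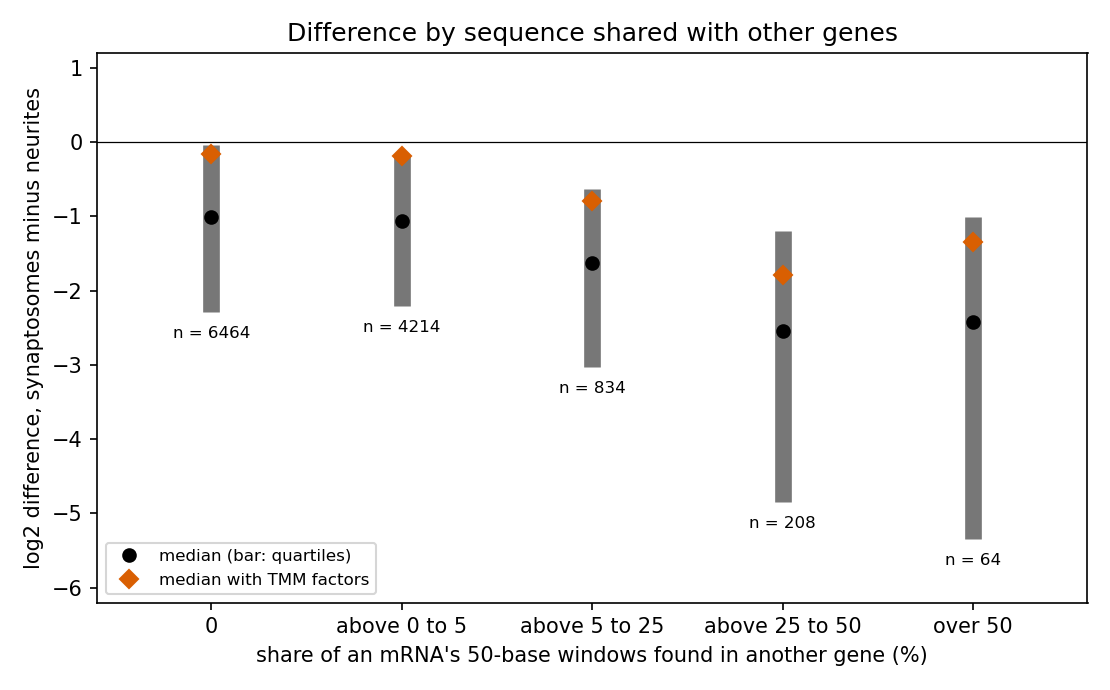
Log2 difference (synaptosomes minus neurites) of mRNAs with at least 20 CPM in either preparation, by the percent of their 50-base windows that occur in transcripts of another gene, as medians with quartiles and as medians with TMM factors. The median falls from −1.01 with no shared window to −2.54 and −2.42 in the last bins.

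Actg1, cytoplasmic gamma-actin, was the extreme case. It had 0 counts in all 3 pools and 60.9 to 214 CPM in the neurite libraries (median 121), at least 198-fold higher in neurites by the mean of 132 CPM against a floor of 3 counts over the pools together. Actb, cytoplasmic beta-actin, measured 907, 1212 and 1153 CPM in the pools and 115 to 1391 CPM in neurites, and did not differ past the threshold (0.81, adjusted p = 0.259). The coding sequence of Actg1 matches the pseudogene Gm12715 at 1124 of 1128 bases, and 973 of its 1079 windows of 50 bases occur in that pseudogene. In all, 22 genes share at least 1 window with this coding sequence. Over all annotated transcripts of Actg1, 37.4% of the windows are shared with other genes. Bases 739 to 858 of both are shown, with the single mismatch in capitals, because the genes differ there at 1 base (mm10, GENCODE vM21, Actg1 at chr11:120345690-120348542 on the minus strand and Gm12715 at chr4:103563402-103564529 on the plus strand).
Actg1: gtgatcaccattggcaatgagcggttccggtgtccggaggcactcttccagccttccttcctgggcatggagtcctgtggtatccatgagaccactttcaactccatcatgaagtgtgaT
Gm12715: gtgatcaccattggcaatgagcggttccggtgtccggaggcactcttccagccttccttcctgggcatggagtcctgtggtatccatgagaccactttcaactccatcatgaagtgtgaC
Gapdh, a glycolytic enzyme with many pseudogenes, had 0.693, 0 and 0.644 CPM in the pools and 91.3 to 1017 CPM in neurites, and 24.7% of its windows are shared. Hsp90aa1, a chaperone with 47.5% of its windows shared, measured 84.5, 99.7 and 75.3 CPM in the pools and 203 to 1651 CPM in neurites, a difference of −3.35 (adjusted p = 0.00955). The tubulins Tuba1a and Tubb2a, with 72.9% and 49.6% of their windows shared, did not pass (−1.20 and −1.36, edgeR adjusted p = 0.22 and 0.118). Tuba1a measured 130, 172 and 119 CPM in the pools and 47.4 to 1275 CPM in neurites. Adcyap1, Mef2c, Nes, Cabp1, Cdk1, Cartpt and Camk2d have no shared window. Of the 252 mRNAs that were higher in neurites with at least 100 CPM there and no overlap between the libraries, 99 have none. Of the 396 that were higher in synaptosomes by the same rule, 228 have none. Among all mRNAs with at least 20 CPM in either preparation, 6464 have none, and 4214, 834, 208 and 64 fall in the bins with shared windows. The share with none among all mRNAs of at least 100 CPM was not counted.

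Energy and protein turnover genes were near the median of all mRNAs or somewhat above it. Of all mRNAs tested, 2.58% were higher in synaptosomes and 25.3% in neurites. Of 37 nuclear genes of mitochondrial complex I, none was higher in synaptosomes and 2 were higher in neurites, with a median of −0.88, and of 39 genes of complexes II to V none and 6, with a median of −0.70. Without sc3, where the genes of complexes II to V summed to 20282 CPM against at most 5546 CPM in the other neurite libraries, the counts were 2 and 2 for complex I and 6 and 7 for complexes II to V, and the medians were −0.17 and 0.20. Of 31 proteasome genes 9 were higher in neurites and none in synaptosomes, with a median of −1.34. Without sc3, where they summed to 7541 CPM against at most 3272 CPM in the other neurite libraries, 10 were higher in neurites, against 46.4% of all mRNAs. The proteasome median was then −0.95. Translation factors had 2 higher in synaptosomes and 7 in neurites of 39, with a median of −0.76 that turned to 0.12 with TMM factors. Eef2, which moves the ribosome along the mRNA, measured 1308, 1453 and 1853 CPM in the pools and 176 to 894 CPM in neurites (median 455), a difference of 1.57 without overlap (SE 0.49, adjusted p = 0.0328). Eif3f, a subunit of initiation factor 3, was higher in synaptosomes by 1.79 (adjusted p = 0.00722). Of 27 genes of sterol and lipid synthesis 2 were higher in synaptosomes and 8 in neurites, with a median of −0.65 that turned to 0.09 with TMM factors. Scd2, the fatty acid desaturase of brain, measured 3457, 2571 and 2952 CPM in the pools and 217 to 1747 CPM in neurites, a difference of 1.67 (adjusted p = 0.0429). Of 15 genes of the amyloid precursor family and its processing, 3 were higher in synaptosomes and 1 in neurites, with a median of 1.21, and without sc3 8 and 1. Lrp1, a receptor that binds the precursor, measured 2509, 2279 and 2850 CPM in the pools and 113 to 1024 CPM in neurites, a difference of 2.29 (adjusted p = 0.0139). Psen2, a presenilin, went the other way with 14.6, 13.8 and 15.4 CPM in the pools and 20.7 to 67.7 CPM in neurites, at −1.56 (adjusted p = 0.0423) and −0.55 with TMM factors (adjusted p = 0.365).

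The largest called difference toward synaptosomes was Gm20721, a gene model on the strand opposite to Gnas, with 755, 780 and 883 CPM in the pools and 1 count in all neurite libraries together. Gnas, which encodes a stimulatory G protein subunit, was itself higher in synaptosomes, with 728, 688 and 748 CPM in the pools and 23.4 to 219 CPM in neurites, by 2.62 (SE 0.48, adjusted p = 0.00541). The strand setting of the counting is not given in the sources used here, so reads of the 2 cannot be told apart. An exon of a gene on the opposite strand overlapped 34.8% of the 468 mRNAs higher in synaptosomes and 27% of all tested mRNAs. The largest differences toward neurites were satellite-repeat models. Gm10800 measured 2.08, 0 and 0 CPM in the pools, 143 CPM in sc3 and up to 81062 CPM in the other neurite libraries. Zan, zonadhesin, a sperm protein, and Muc16, a mucin, which neither preparation should express, had 0 counts in all pools. Zan had 0.493 CPM in sc3 and up to 436 CPM in the other neurite libraries, and Muc16 0.0428 and up to 282 CPM. Sfi1, a centrosome protein and the 12th mRNA by mean CPM in neurites, measured 10.4, 4.59 and 8.37 CPM in the pools and 22.6 to 2904 CPM in neurites (median 1233), a difference of −7.43 (SE 1.37, adjusted p = 0.00541). Of the 4581 mRNAs higher in neurites, 1349 had 0 counts in all pools, whose mRNA counts were between those of the deepest and the shallowest neurite library.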

How the data were processed

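The authors aligned the reads of total RNA libraries to mm10 with STAR 2.5.2b and counted them per gene with featureCounts 1.5.1, and the deposited tables hold these raw counts beside normalized columns, of which only the raw counts were used. Whether strand was used, and how reads with several matches were counted, is not given in the sources used here. From the counts, CPM over the 22005 mRNA rows were computed. A further 34 columns with values of samples were left aside.

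Synaptosome and control chamber libraries were compared with the quasi-likelihood test of edgeR 4.0.16 in R 4.3.3 on raw counts, with the mRNA total as library size, filterByExpr, and a call at an adjusted p (Benjamini-Hochberg) up to 0.05 with a log2 difference of at least 1 either way. All p-values in the text are from this test unless another is named. The pools are separate pools of mice, but nothing states that the chamber libraries are separate cultures, so p-values measure the spread between these libraries, which may be technical in part. Counts are PCR reads without molecular identifiers, so floors for a count of 0 (3 counts) cover counting error only. On simulated data with the estimated spread (13718 mRNAs tested) the test recovered 0, 2, 18 and 29 of 50 mRNAs changed 2-, 4-, 8- and 16-fold and called 1 unchanged mRNA. With a dispersion of 0.05 (13230 tested) it recovered 20, 49, 50 and 50 and called 3. The simulated preparations had the same mRNA profile apart from the changed mRNAs. Errors from a shift of the whole profile or from single deviating libraries were therefore not covered. DESeq2 1.42.0, TMM factors, other filters, other rows, other sets of libraries, a replicate block and each library left out were alternatives. Lists are described by counts and medians, with no test of a list. Transcripts, coordinates and sequences are from GENCODE vM21 on GRCm38 (mm10). The share of windows found in another gene was counted on the same strand, over the distinct 50-base windows of all annotated transcripts of a gene. Ranks, lists and figures were made in Python 3.11.15 (pandas 2.3.3, scipy 1.17.1, matplotlib 3.10.9).

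The members, the gene lists and the tests were chosen with earlier results of these data known. Named mRNAs are the 5 markers, the 12 of highest mean CPM in each preparation, the 15 called mRNAs of largest difference each way with at least 100 CPM in the higher preparation and no overlap, the 4 members of each list of highest mean CPM and called members that go against their list, of which some are not reported here. The following were named beside this rule after their values were seen: Kif5c, Adcyap1, Otx2, Gria1, Ddn, Grm5, Homer2, Grin1, Sv2b, Cplx2, Snap25, Slc32a1, Sst, Itpr1, Glul, Clu, Gja1, Gfap, Stmn1, Dcx, Cd24a, Dpysl5, Gap43, Cdk1, Rgs4, Mef2c, Klf4, Fos, Hsp90aa1, Gnas and members named in the closing section.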

Additional observations from a re-analysis of the deposited data

Results flagged for a closer look

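In 23 of 114 values examined over the 8 neurite libraries, the highest or the lowest library lay farther from its neighbour than 0.526 of the whole range, a gap that chance gives in about 1 in 20 groups. In 17 of the 23 the library was sc3, and each time it was the highest. It held 46675715 mRNA counts, where the next library had 3381812, and mRNAs took 96.7% of all its counts, where the next had 81.8%. Some astrocyte mRNAs were among the 17, with 4721 CPM of Apoe (next 1025), 712 CPM of Clu (next 67.3), 2652 CPM of Gfap (next 733), 269 CPM of Gja1 (next 88.8) and 515 CPM of Glul (next 260). Slc1a2 was not, with 311 CPM in sc3, below the median of 712 CPM. So did the radial glia mRNA Fabp7 at 1354 CPM (next 257) and Enpp2, a secreted enzyme of oligodendrocytes and choroid plexus, at 565 CPM (next 85.5). Among neuronal and housekeeping mRNAs it held the highest level of Cpe (3243 CPM, next 649), Snap25 (3135 CPM, next 910), Gapdh (1017 CPM, next 242), Stmn1 (557 CPM, next 269), Tuba8 (136 CPM, next 64.1), Tubg1 (97.2 CPM, next 55.7), Dkk3 (90.0 CPM, next 47.8) and Sst (78.3 CPM, next 11.8).

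Library Ctrl3 was the highest for 3 mRNAs. It had 136 CPM of Cdk1 (next 42.3) and 91.6 CPM of Klf4 (next 37.2), and it held the only count of Gm20721 in neurites, 0.641 CPM. The highest level of Cartpt was 238 CPM in C2 (next 107), that of Eif3f 61.5 CPM in C11 (next 39.1) and that of Dcn 27.1 CPM in Ctrl4 (next 12.6).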

How the results depend on the processing

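Against 468 mRNAs higher in synaptosomes and 4581 higher in neurites, DESeq2 without a replicate block gave 1622 and 5157, TMM factors 978 and 1280, number titles alone 903 and 7530 and titles with letters alone 266 and 1444. A filter of 10 counts in every library of one preparation gave 2399 higher in neurites. Leaving out 1 library gave 84 to 773 and 169 to 8381. The title number as a replicate block gave 1 and 5. Same-numbered pools and chambers share only a number: their deviations correlated at −0.19 to 0.09 over 5 pairs, against −0.07 to 0.15 over 19 others. No filter, rows with mitochondrial mRNAs, scaling without Lars2 and satellites, and, added after seeing the data, mRNAs with under 5% shared windows kept both counts within 1.5 times. The rank correlation of 0.83 was 0.80 to 0.85 with 1 library left out and 0.69 per kilobase. The 130 shared of the first 250 were 122 to 131, 106 per kilobase and 95 with titles with letters alone. Other alternatives moved both by less than the spread between libraries. Reversed signs were seen in mRNAs that were not called: Calm3 with DESeq2 (0.050), TMM (0.13) and letters alone (0.60), Snap25 with DESeq2 (0.17), TMM (0.10) and 1 library left out (−0.61 to 0.27), Bsg with mitochondrial mRNAs kept (−0.13), letters alone (−0.16), the replicate block (−0.24) and 1 library left out (−0.040 to 0.36), and Gfap with DESeq2 (0.57), TMM (0.51), number titles alone (0.21), without Lars2 and satellites (0.078) and 1 library left out (−0.22 to 0.57). The cause was not tested. In the pools, 1443032 to 1553612 mRNA counts limit what can be said of mRNAs under a few CPM.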

Other observations

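Cytoskeletal building blocks were mostly not called. Among all mRNAs tested, 2.58% were higher in synaptosomes and 25.3% in neurites. Of 13 tubulins tested none was higher in synaptosomes and 2 were higher in neurites, Tuba8 and Tubg1. The median difference of the tubulins was −1.20 (−0.67 with TMM factors, when none was called). Without sc3, where the tubulins summed to 5106 CPM against at most 2090 CPM in the other neurite libraries, 3 were higher in neurites. That compares with 46.4% of all mRNAs, and the tubulin median was −0.78. Of 6 neurofilament and other intermediate filament genes of neurons 2 were higher in neurites, Nes and Prph, and of 24 actins and actin regulators 3, Actg1, Actr3 and Cttn, against 1 higher in synaptosomes, Nckap1, a subunit of the WAVE complex. The medians of these lists were −0.79 and −0.26, and turned to 0.03 and 0.45 with TMM factors. Of 14 calmodulins and calmodulin binders Calm2 alone was called, and the median went from −0.49 to 0.29.

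Of 22 chaperones 6 were higher in neurites, against 25.3% of all mRNAs, and none in synaptosomes, against 2.58%. Their median of −0.69 turned to 0.06 with TMM factors. Of 16 glycolytic enzymes 3 were higher in neurites and none in synaptosomes, with a median of −0.50 that turned to 0.11. Without sc3, in which the glycolytic enzymes summed to 22316 CPM against at most 3958 CPM in the other neurite libraries, 3 of them were higher in synaptosomes and 3 in neurites, with a median of 0.17. Of 19 secretory granule genes 4 were higher in synaptosomes, Cpe, Sst, Nptx1 and Pcsk2, a prohormone convertase, and 1 in neurites, Cartpt, with a median of −0.44 that turned to 0.40. Of 10 meningeal and fibroblast markers Dcn, decorin, was higher in synaptosomes, with 61.7, 72.8 and 72.1 CPM in the pools and 0 to 27.1 CPM in neurites, and Col1a1, a chain of collagen I, was higher in neurites, with 18.7, 9.18 and 6.44 CPM in the pools and 6.66 to 149 CPM in neurites. Of 7 blood cell markers 2 had enough counts for a test, and the 7 summed to at most 4.16 CPM in a pool and 66.0 CPM in a neurite library. Of 12 satellite-repeat models tested 10 were higher in neurites, on both scales, and 11 of the 12 had 0 counts in all pools. Gm26870, also listed, was not among the mRNAs compared.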
